A study of Rattus norvegicus with 3 samples.

Results

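Protein kinase A (PKA) is the main kinase that cyclic AMP switches on, and 9 genes that control it were followed here in heart muscle cells of newborn rats. They encode 3 cyclic AMP phosphodiesterases (Pde3b, Pde4b, Pde4d), 1 catalytic subunit (Prkaca), 3 regulatory subunits (Prkar1a, Prkar2a, Prkar2b), the anchoring protein Sphkap and the PKA-interacting protein Akip1. The genes were taken by name, as all probe sets that the platform annotation gives 1 of these symbols alone, which were 21 of 12783 probe sets with 1 symbol and 9 of 10411 genes. The cells were ventricular myocytes in culture, and total RNA was hybridised to 3 Affymetrix rat arrays. One array held cells kept for 48 h with 20 µM phenylephrine, an agonist of α1-adrenergic receptors that makes cultured myocytes grow. Another held cells kept for 48 h with 1 µM PAMH, a compound known here only by that name, and the last held cells kept for 48 h without a stimulus. The labels name no strain, animal number or pooling, and each group had 1 array, so the differences below come without a replicate check, an error or a p-value. The compounds were used at different doses, so their values stand side by side without being compared.

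In heart muscle, cyclic AMP made after β-adrenergic stimulation releases the catalytic subunits of PKA from the regulatory subunits, and the freed kinase phosphorylates calcium-handling and contractile proteins. Phosphodiesterases break cyclic AMP down, and A-kinase anchoring proteins hold PKA, by its regulatory subunits, near chosen targets, so that the signal stays local. AKIP1 binds the catalytic subunit and is also known as a partner of the NF-κB subunit RelA, while SPHKAP is an anchoring protein named for its binding to sphingosine kinase and known for its preference for type I PKA.

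Akip1 was 3.59-fold to 4.67-fold higher on the treated arrays by the 4 probe sets that could be measured, and Sphkap was 2.45-fold lower with phenylephrine and 3.78-fold lower with PAMH. The regulatory subunit gene Prkar2b was 1.84-fold higher with phenylephrine and 1.65-fold higher with PAMH. Pde4b was 1.42-fold higher with phenylephrine and 1.64-fold lower with PAMH. The catalytic subunit, the other regulatory subunits and Pde4d stayed within 1.5-fold of the unstimulated array, and Pde3b was too dim to measure.

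Signals below are intensities on a linear scale after each array was multiplied by 1 factor that made the array medians equal. The deposited arrays already had equal trimmed means (250.1 after leaving out 2% at each end), so this is a second scaling of values that share that mean. Before it the log2 ratio of the array medians was -0.13 for phenylephrine over unstimulated and -0.15 for PAMH over unstimulated, and all ratios given are relative to that shift. Signals under 76.0, the lowest 40% of all values, were treated as not measured, and a ratio needed both arrays at or above this floor. A gene is represented by its brightest probe set unless stated. As a technical yardstick, the log2 ratio varied between probe sets of the same gene with an SD of 0.27 over 864 genes for phenylephrine and 0.29 over 867 genes for PAMH, which holds no variation between cultures. Of 10 markers of cardiac myocytes, 9 were on the array and all 9 were above the floor on every array. Near 60% of all probe sets on each array also reached the floor, as did most fibroblast and smooth muscle markers. Reaching it therefore does not check the labelled cell type.

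**Figure D1:**
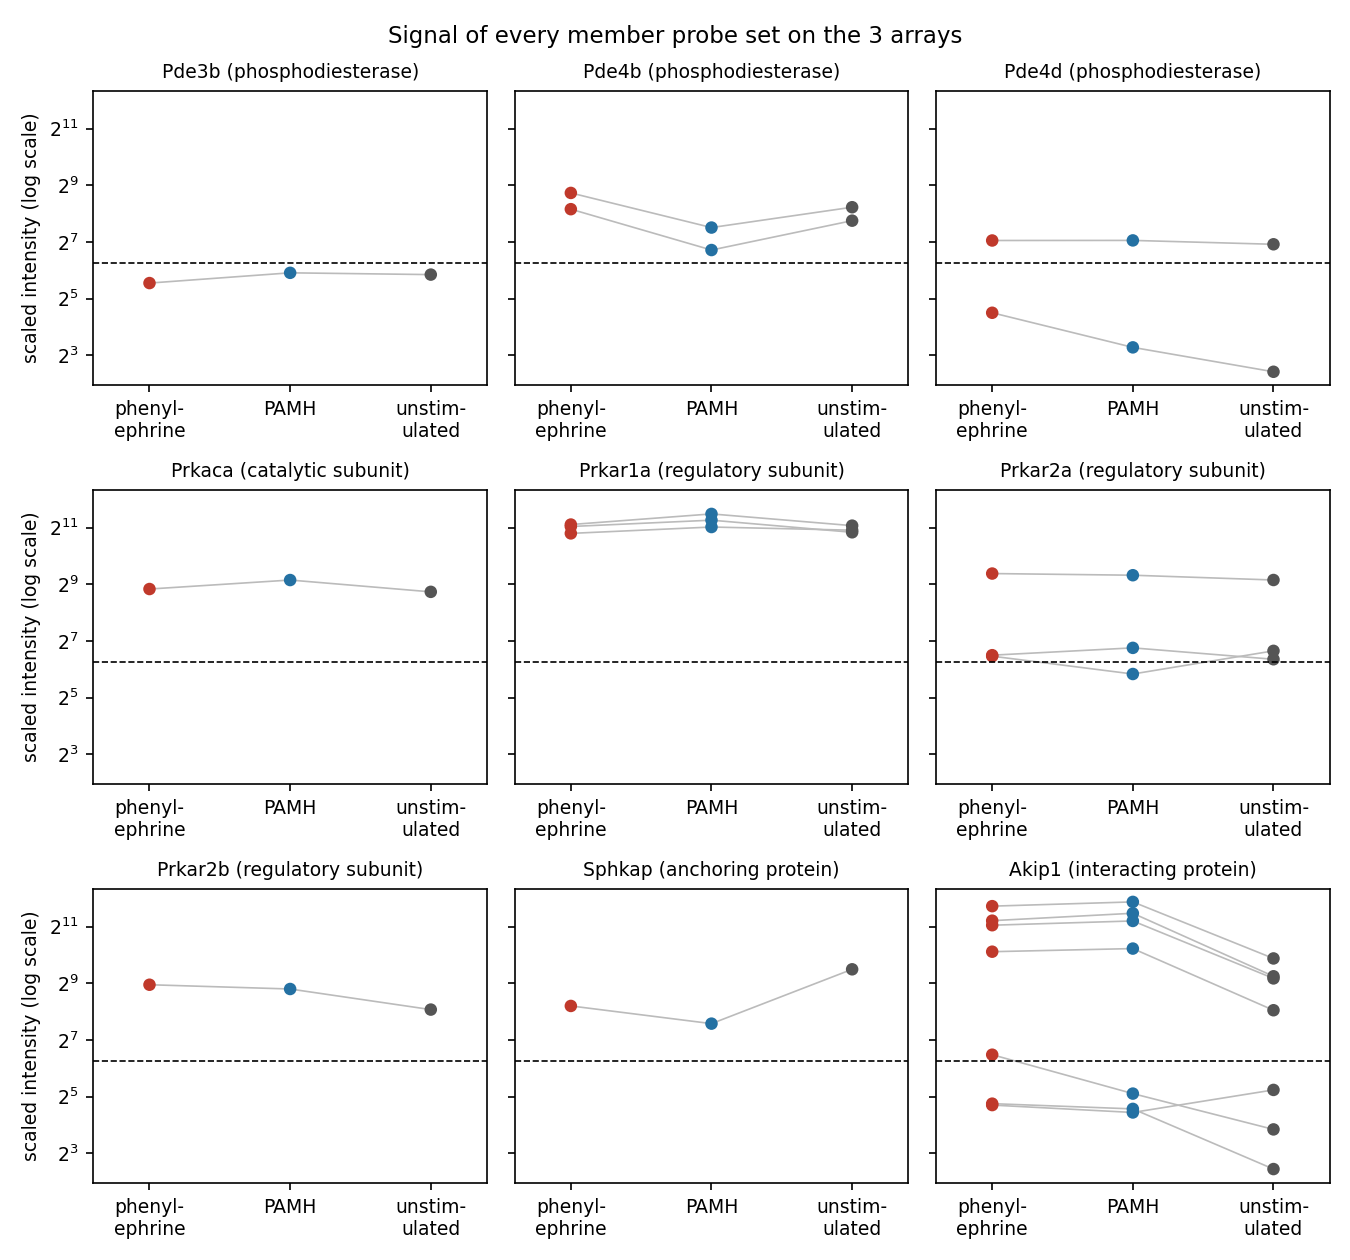
Scaled intensity (log scale, base 2) of all 21 probe sets of the 9 genes on the phenylephrine, PAMH and unstimulated arrays; each point is 1 probe set on 1 array, grey lines join the same probe set, and the dashed line is the floor at 76.0. The 4 bright Akip1 probe sets lie far lower on the unstimulated array, and Sphkap lies highest there.

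Of the phosphodiesterases, which end the cyclic AMP signal, Pde4b was measured by 2 probe sets on all 3 arrays. The brighter one, 1374157_at, had signals of 424 with phenylephrine, 182 with PAMH and 299 in unstimulated cells. Its dimmer partner, 1369044_a_at, had 285 with phenylephrine, 105 with PAMH and 215 in unstimulated cells. By both, the phenylephrine signal lay above the unstimulated one and the PAMH signal below it. Against the unstimulated array the log2 ratios were 0.50 and 0.41 with phenylephrine, short of 1.5-fold, and -0.72 and -1.04 with PAMH, past it. Among genes of like signal the median was 0.03 with phenylephrine and 0.08 with PAMH. With PAMH, 158 of 6551 measured genes had a lower ratio than Pde4b.

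Pde4d, a second member of the cyclic AMP-specific PDE4 family, was measured by 1 of its 2 probe sets, with signals of 133 for phenylephrine, 133 for PAMH and 121 for unstimulated cells. These signals gave log2 ratios of 0.13 with phenylephrine and 0.14 with PAMH, well inside the spread between probe sets of 1 gene. The other Pde4d probe set, 1368750_a_at, lay below the floor throughout, at 22.6, 9.70 and 5.34 on the phenylephrine, PAMH and unstimulated arrays. Pde3b, which encodes an enzyme that breaks down both cyclic AMP and cyclic GMP, was also below the floor on all 3 arrays, with 46.8 for phenylephrine, 60.1 for PAMH and 57.5 for unstimulated cells. No ratio is given for either.

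Prkaca encodes the α catalytic subunit, which carries the kinase activity. Its only probe set had a signal of 455 with phenylephrine, 567 with PAMH and 425 in unstimulated cells. The log2 ratios were 0.10 with phenylephrine and 0.42 with PAMH, beside medians of 0.10 and 0.14 for genes of like signal. Neither reached 1.5-fold.

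The regulatory subunits bind cyclic AMP and, without it, keep the catalytic subunits inactive. Prkar1a, the α subunit of type I PKA, was measured by 3 bright probe sets, which had signals of 2205, 2102 and 1776 with phenylephrine, 2859, 2454 and 2075 with PAMH, and 2146, 1824 and 1920.2 in unstimulated cells. Its log2 ratios were 0.04, 0.20 and -0.11 with phenylephrine and 0.41, 0.43 and 0.11 with PAMH. The direction with phenylephrine thus differed between probe sets, and genes of like signal had medians of 0.24 and 0.32 under this scaling. After quantile normalization the brightest probe set had -0.24 with phenylephrine and 0.07 with PAMH. The dimmest of the 3 then had -0.36 and -0.19. With phenylephrine the direction of Prkar1a was thus not settled. With PAMH the value that represents the gene stayed positive under all 10 processing alternatives, but its dimmest probe set did not.

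Prkar2a, the α subunit of type II PKA, had 1 bright and 2 dim probe sets. The bright one, 1373400_at, had signals of 665 with phenylephrine, 638 with PAMH and 568 in unstimulated cells, and log2 ratios of 0.23 and 0.17. Of the dim pair, 1371059_at had log2 ratios of 0.14 with phenylephrine and 0.40 with PAMH. The other, 1375620_at, had -0.19 with phenylephrine, and on the PAMH array it was below the floor, at 57.0 against 100.3 in unstimulated cells.

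Prkar2b, the β subunit of type II PKA, was the regulatory subunit gene furthest from its unstimulated level. Its single probe set had signals of 494 with phenylephrine, 445 with PAMH and 269 in unstimulated cells. Both treated arrays lay above the unstimulated one, with log2 ratios of 0.88 for phenylephrine and 0.73 for PAMH. Genes of like signal had medians of 0.08 and 0.11. Among all measured genes, 236 of 6572 had a higher ratio with phenylephrine and 363 of 6551 with PAMH. On the deposited intensities the PAMH value was 0.57, just short of 1.5-fold.

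**Figure D2:**
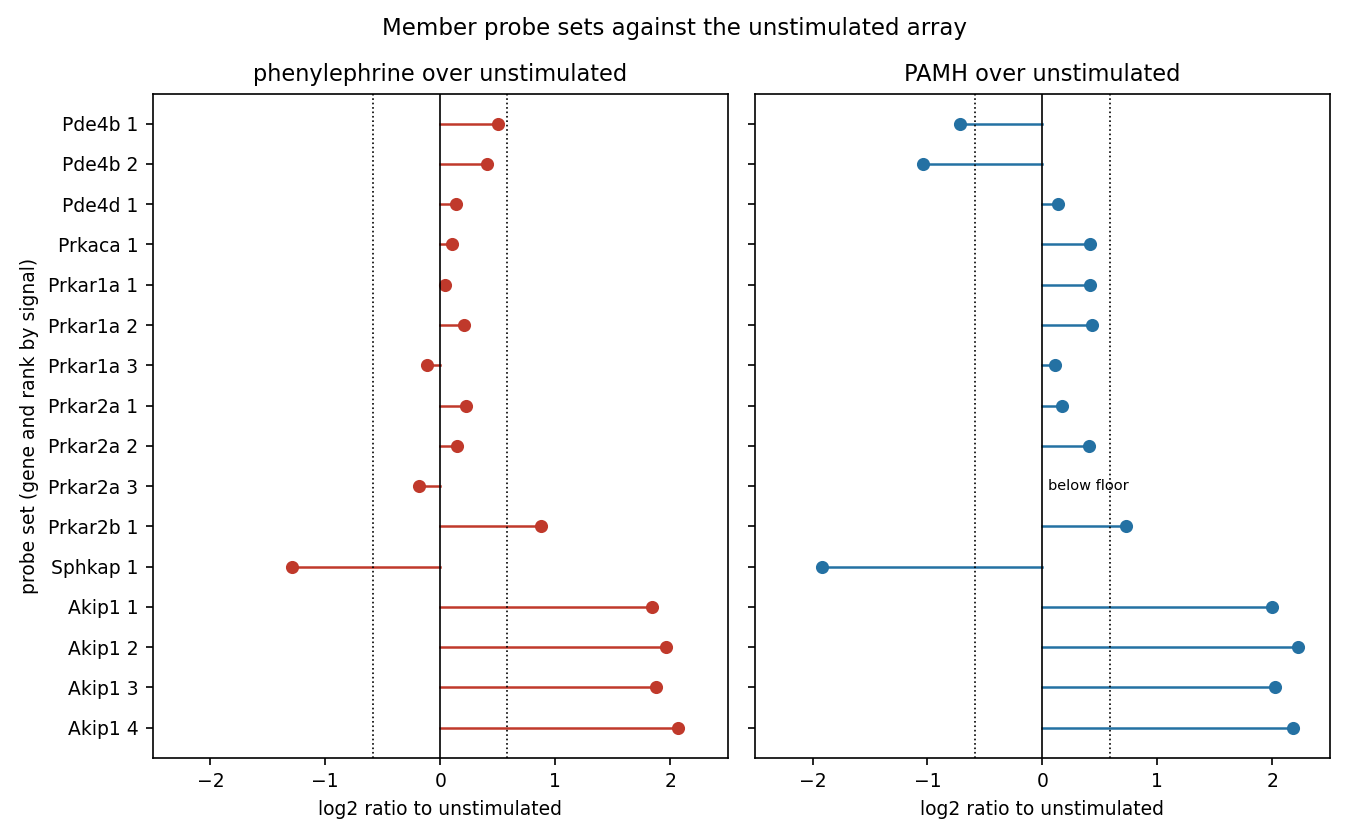
Log2 ratio to the unstimulated array of each member probe set with at least 2 arrays at or above the floor, for phenylephrine (left) and PAMH (right); dotted lines mark 1.5-fold, and the number after a gene ranks its probe sets by signal. The 4 Akip1 probe sets lie between 1.85 and 2.22, both Pde4b probe sets lie above zero in the left panel and below it in the right, and the 3 Prkar1a probe sets stay inside the dotted lines.

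Sphkap, the anchoring protein gene, was represented by a single probe set, 1374168_at. It had signals of 294 with phenylephrine, 191 with PAMH and 719.8 in unstimulated cells, so both treated arrays lay far below the unstimulated one. The log2 ratios were -1.29 with phenylephrine and -1.92 with PAMH, where genes of like signal had medians of 0.08 and 0.11. Only 16 of 6572 measured genes had a lower ratio with phenylephrine, and 1 of 6551 with PAMH. The single probe set leaves this value without a second measurement in these data.

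Akip1 had 7 probe sets, made from 3 source sequences, and 4 of them were measured on every array. These 4 rest on only 2 of the source sequences, so they are not independent measurements. The brightest, 1392938_s_at, had signals of 3374 with phenylephrine, 3745 with PAMH and 939 in unstimulated cells. From the other source sequence, 1385458_a_at had 2365 with phenylephrine, 2835 with PAMH and 607 in unstimulated cells. Both show the same order of arrays, with the unstimulated signal lowest by a wide margin.

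The remaining measured Akip1 probe sets gave the same order. Signals of 1383175_a_at were 2117 with phenylephrine, 2349.5 with PAMH and 576 in unstimulated cells, and those of 1383176_at were 1108 with phenylephrine, 1195 with PAMH and 264 in unstimulated cells. Over the 4 probe sets the ratio ranged from 3.59-fold to 4.19-fold higher with phenylephrine and from 3.99-fold to 4.67-fold higher with PAMH. In log2 units the medians were 1.92 and 2.10, against like-signal medians of 0.24 and 0.32. By the brightest probe set, 21 of 6572 genes had a higher ratio with phenylephrine and 7 of 6551 with PAMH.

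The other 3 Akip1 probe sets were too dim to give a ratio. The probe set 1376857_at reached 89.1 with phenylephrine, but was below the floor at 34.4 with PAMH and 14.3 in unstimulated cells. Its companion 1385459_at had 26.9 with phenylephrine, 23.7 with PAMH and 5.43 in unstimulated cells, and 1393856_x_at had 25.99 with phenylephrine, 21.7 with PAMH and 37.7 in unstimulated cells. These signals lay below the floor and bear no direction. In the manufacturer's naming the suffix _s_at marks probes shared by several transcripts and _x_at probes that resemble other sequences, and the RefSeq gene table lists an Akip1 pseudogene, Akip1-ps1. How far that copy adds to any Akip1 signal was not tested.

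RefSeq promoter entries on the rat build GRCr8 matched 7 of the 9 genes, and the 250 bases before each start site of Akip1, Sphkap, Prkar2b and Pde4b, the genes past 1.5-fold, were searched on both strands. Pde4b has 2 start sites, which made 5 windows. The bases shown are those of Akip1, the member furthest above its unstimulated signal, and of the first start site of Pde4b, which was above its unstimulated signal with phenylephrine and below it with PAMH. For Akip1 the sequence lies at chr1:173169381-173169519 on the plus strand, and its capitals mark E-box letters (CANNTG). The remaining 111 bases of that window lie inside the widest annotated extent of the gene and are not shown. For Pde4b it lies at chr5:122028706-122028955 on the plus strand, and its capitals mark the core letters of NFAT sites (GGAAA on either strand).
Akip1: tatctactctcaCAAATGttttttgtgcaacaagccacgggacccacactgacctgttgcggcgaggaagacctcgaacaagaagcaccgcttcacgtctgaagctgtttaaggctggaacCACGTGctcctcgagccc
Pde4b: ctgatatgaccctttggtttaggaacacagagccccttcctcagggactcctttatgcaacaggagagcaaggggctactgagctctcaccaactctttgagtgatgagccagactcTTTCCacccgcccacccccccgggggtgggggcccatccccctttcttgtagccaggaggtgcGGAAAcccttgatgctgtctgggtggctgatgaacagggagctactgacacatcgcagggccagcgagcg

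The cyclic AMP response element, spelled TGACGTCA, was in none of the 5 windows, and in 1.59% of all 33465 RefSeq promoter windows of this length. Its shorter core, spelled TGACG and contained in the longer word, was also in none, against 18.2% of all windows. The Akip1 window held 3 E-boxes, starting 238, 129 and 45 bases before the start site, of which the middle one is of the form CACGTG and the last lies outside the bases shown. That form was in 5.59% of all windows and any E-box in 65.5%. The first Pde4b window held 2 NFAT cores, starting 133 and 70 bases before the start site, and 56.9% of all windows held at least 1. The second Pde4b window held 1 AP-1 word (TGANTCA, 6.34% of all windows), 1 E-box and 1 GATA core (AGATAA, 10.3%). The Sphkap and Prkar2b windows held none of the 9 words searched, which included TATAAA (12.9%) and the CArG box (1.5%). However, 209 of the 250 Sphkap bases and 228 of the 250 Prkar2b bases lie inside the widest annotated extent of the gene. So do all 250 bases of the second Pde4b window. The Prkar2b window is 80.8% G and C, against a median of 51.2% over all windows. Such letters describe the sequence and are not evidence of a bound site.

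Read against all genes, the members' counts were as follows. The members were chosen with earlier results of these data known, so their shares beside those of all genes describe them and test nothing. With phenylephrine, 2 of the 8 measured members were at least 1.5-fold higher, where 8.9% of 6572 genes were, and 1 was at least 1.5-fold lower, where 4.53% were. At 2-fold, 1 was higher and 1 lower, beside 2.62% and 0.761% of all genes. With PAMH, 2 of 8 were at least 1.5-fold higher, where 9.31% of 6551 genes were, and 2 were at least 1.5-fold lower, where 4.17% were. At 2-fold, 1 was higher and 1 lower, beside 2.05% and 0.794%. The 8 members had a median of 0.18 in log2 units for phenylephrine and 0.29 for PAMH, against 0.07 and 0.10 over all measured genes. The split over all genes depends on scaling: 585 higher and 298 lower with phenylephrine became 396 and 519 on the deposited intensities, and 610 and 273 with PAMH became 350 and 515. Both comparisons use the same unstimulated array, so any deviation of that array enters both.

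**Figure D3:**
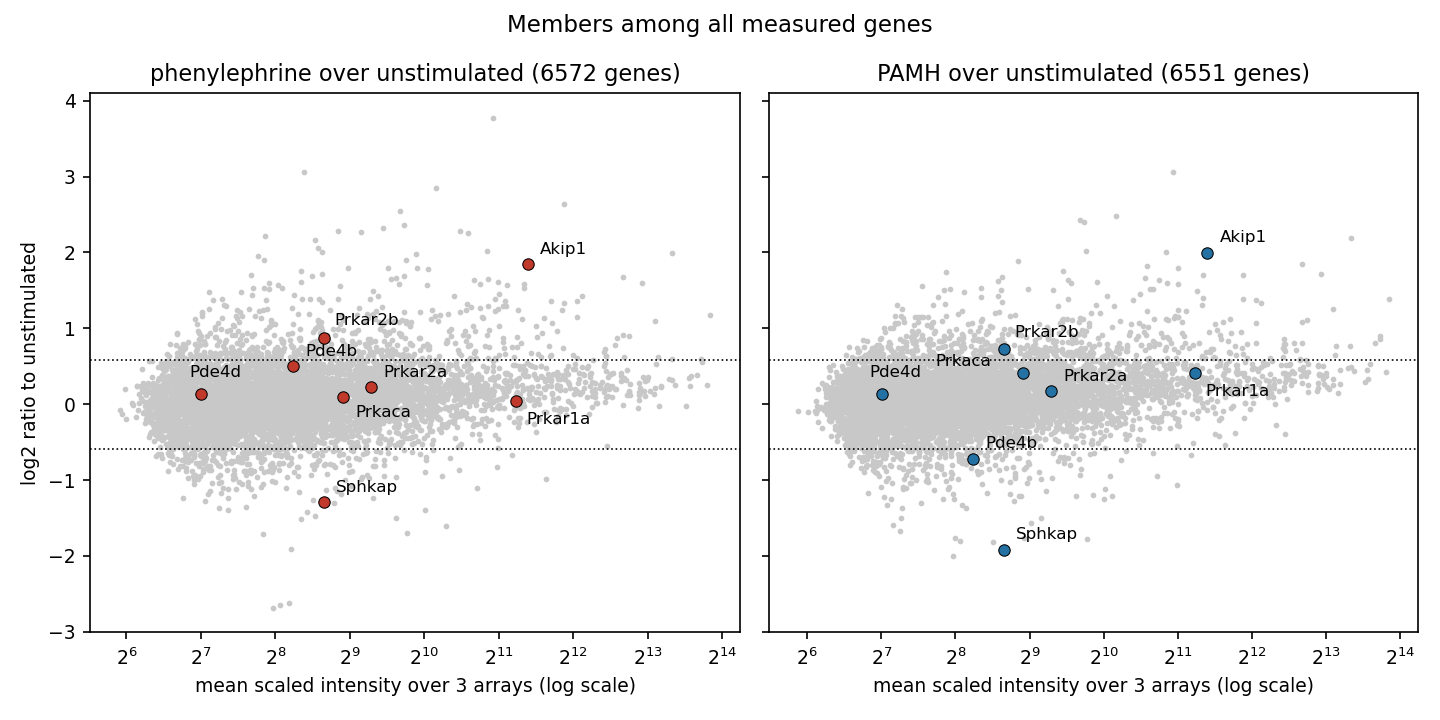
Log2 ratio to the unstimulated array against mean scaled intensity over the 3 arrays (log scale, base 2) for every measured gene (grey), with the 8 measured members named, for phenylephrine (left, 6572 genes) and PAMH (right, 6551 genes); dotted lines mark 1.5-fold. Akip1 lies near the upper edge and Sphkap near the lower edge of the cloud in both panels, while Prkaca, Prkar1a, Prkar2a and Pde4d lie inside it.

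Markers of other cell types moved on the same arrays. In bulk RNA fewer cells of a type and less RNA per cell cannot be told apart. Of 9 measured fibroblast markers, none was at least 1.5-fold higher with either compound. At least 1.5-fold lower were 1 with phenylephrine and 6 with PAMH. Of those 6, Col1a1 and Fbn1 also had a dimmer probe set. These dimmer probe sets had log2 ratios of -0.04 and -0.41 with PAMH, short of 1.5-fold. Thy1 went the other way, with log2 ratios of 0.53 with phenylephrine and 0.21 with PAMH. The summed signal of the 10 fibroblast markers on the array was 9428 with phenylephrine, 7452 with PAMH and 11682 in unstimulated cells. Of 6 measured smooth muscle markers, 5 were higher with phenylephrine, and 4 were higher and 1 lower with PAMH. The lower one was Myh11, with log2 ratios of 0.02 with phenylephrine and -0.64 with PAMH. Lmod1, a further smooth muscle marker, was below the floor on all arrays. The summed smooth muscle signals were 14422.5 for phenylephrine, 11943 for PAMH and 6423 for unstimulated cells. The 9 myocyte markers summed to 89429.5 with phenylephrine, 106754 with PAMH and 67403 in unstimulated cells. This rise was uneven. Nppa, Myh7 and Myl3 passed 1.5-fold upward with both compounds, and Myl2 with PAMH alone. Signals of Nppa were 16987 with phenylephrine, 19589 with PAMH and 7516 in unstimulated cells. Myh6, Tnnt2, Tnni3, Pln and Ryr2 stayed within 1.5-fold. Their log2 ratios were -0.03, 0.25, -0.02, -0.02 and -0.27 with phenylephrine, and 0.30, 0.44, 0.11, 0.15 and -0.16 with PAMH. Whether the share of myocytes differed was not tested. Of the 5 endothelial markers on the array 3 were below the floor on all arrays, and all 5 were below it with PAMH. Their summed signals were 327 with phenylephrine, 169.8 with PAMH and 272 in unstimulated cells, and with the PAMH signals below the floor these sums bear no direction. Of 7 macrophage markers 4 were below the floor on all arrays, and the sums were 442, 502 and 413 in the same order. Only Aif1 and Cd74 had ratios, and they went opposite ways. In log2 units Aif1 had 0.18 with phenylephrine and 0.56 with PAMH, and Cd74 had -0.59 and -0.52. No defining marker was listed at 0, but signals below the floor, such as those of Pecam1, Vwf and Cd68, count as not measured. The part of other cell types in the values of Akip1, Sphkap, Prkar2b and Pde4b was not tested.

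Some genes lay close to Akip1 and Sphkap in the pair of ratios to the unstimulated array. Nearness was the Euclidean distance between the 2 log2 ratios, over 4826 genes measured on all 3 arrays with a mean signal above percentile 60. Nearest to Akip1 were Mllt11 (distance 0.06), Enah, an actin regulator (0.17), the LIM protein gene Fhl1 (0.23), Nppb, which encodes B-type natriuretic peptide (0.25), and the Wnt receptor gene Fzd2 (0.34). Of these, Mllt11 had signals of 1103 with phenylephrine, 1194 with PAMH and 295 in unstimulated cells. Nearest to Sphkap were Gja5, which encodes the atrial and conduction-system connexin 40 (0.11), Rgma (0.31), Col14a1 (0.41), the cardiac gene Lrrc10 (0.43) and Coq8a of coenzyme Q synthesis (0.52). The Gja5 signals were 267 with phenylephrine, 183 with PAMH and 642 in unstimulated cells, but its second brightest probe set had a log2 ratio of -0.44 with PAMH, and that of Col14a1 had -0.49. The second brightest probe set of Fhl1 had log2 ratios of 2.64 with phenylephrine and 2.74 with PAMH, against 1.67 and 1.85 by the brightest. With 3 arrays such nearness describes only these hybridisations.

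The rest of the cyclic AMP pathway was counted in 11 lists that hold 135 genes, 111 of them on the array and 70 measured with each compound. With phenylephrine 12 were at least 1.5-fold higher and 2 lower, and with PAMH 14 were higher and 1 lower, with median log2 ratios of 0.10 and 0.16. These shares lie beside the backgrounds of 8.9% higher and 4.53% lower for phenylephrine and 9.31% and 4.17% for PAMH, and the lists were drawn up with earlier results of these arrays known.

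Upstream of cyclic AMP, the β-adrenergic receptor genes Adrb1 and Adrb3 were near or below the floor, with signals of 58.7 and 68.7 for phenylephrine, 37.2 and 92.4 for PAMH and 47.2 and 51.6 for unstimulated cells. Of the 4 measured receptor and G protein genes, Grk5, a kinase that desensitises such receptors, was 1.78-fold higher with phenylephrine and 1.54-fold higher with PAMH. Gnas, which encodes the stimulatory Gα subunit, was 1.33-fold higher with phenylephrine and 1.52-fold higher with PAMH, but had a log2 ratio of 0.20 with PAMH after cyclic loess. Among 3 measured adenylyl cyclases, which make cyclic AMP, Adcy5 was 1.87-fold lower with phenylephrine, with signals of 141 on that array and 263 in unstimulated cells, and had a log2 ratio of -0.34 with PAMH. Adcy3 was 1.51-fold higher with PAMH, near the floor. Adcy6, the brightest of them, had log2 ratios of -0.42 with phenylephrine and -0.31 with PAMH.

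None of the 5 other measured genes named as cyclic nucleotide phosphodiesterases passed 1.5-fold with either compound. Their medians were -0.16 with phenylephrine and 0.03 with PAMH. They were Pde2a, Pde6d, Pde6g, Pde7a and Pde10a, taken by name and not limited to enzymes that break down cyclic AMP. The brightest, Pde6d, had log2 ratios of -0.25 and 0.03. Pde3a and Pde4a, relatives of Pde3b and Pde4b, were below the floor on all 3 arrays. Pde8a had signals of 95.7 with phenylephrine and 95.2 with PAMH. It has no ratio because its unstimulated signal, 57.8, was below the floor. Among 5 measured genes for other PKA subunits and PKA inhibitors, Pkia, which encodes an inhibitor peptide of the catalytic subunit, was 1.41-fold higher with phenylephrine and 1.55-fold higher with PAMH. Its 3 probe sets had log2 ratios of 0.50, 0.51 and 0.61 with phenylephrine and 0.63, 0.68 and 0.84 with PAMH. After quantile normalization the brightest had 0.29 with PAMH.

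Like Sphkap, the A-kinase anchoring proteins place PKA in the cell. Of 16 other measured genes of this kind, 2 passed 1.5-fold upward and 0 downward with phenylephrine, and 3 were higher and 1 lower with PAMH, with medians of 0.12 and 0.08. Pakap, the locus that holds Akap2, was 1.69-fold higher with phenylephrine and 1.64-fold higher with PAMH. Synm, an intermediate filament protein that also anchors PKA, was 1.59-fold and 1.90-fold higher. Akap6, which anchors PKA at the nuclear envelope of myocytes, was 1.65-fold higher with PAMH and had a log2 ratio of 0.11 with phenylephrine. The 1 lower gene was Cmya5, which encodes myospryn, at 1.68-fold lower with PAMH and a log2 ratio of -0.26 with phenylephrine.

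Of other cyclic AMP effectors, Popdc2, a cyclic AMP-binding membrane protein of heart, was 1.94-fold higher with PAMH and had a log2 ratio of 0.52 with phenylephrine. Hcn2, a pacemaker channel gene gated by cyclic AMP, was 1.78-fold higher with phenylephrine and had a log2 ratio of 0.28 with PAMH. Cardiac PKA substrates had medians of -0.02 over 10 genes with phenylephrine and 0.11 over 9 genes with PAMH. Fxyd1, which encodes the sodium pump regulator phospholemman, was 2.05-fold higher with phenylephrine and 2.08-fold higher with PAMH. The small heat shock protein gene Hspb6 was 1.57-fold and 2.22-fold higher, and Mybpc3, the cardiac myosin-binding protein C, was 1.53-fold higher with PAMH. Pln, which encodes phospholamban and was the brightest of the list, had log2 ratios of -0.02 with phenylephrine and 0.15 with PAMH.

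CREB and its relatives are transcription factors that PKA phosphorylates. Their list here also held coactivators and the kinases Sik1, Sik2 and Sik3. In it 2 of 10 measured genes were at least 1.5-fold higher and 1 lower with phenylephrine, and 1 of 11 was higher with PAMH. The factors Creb1, Crem and Atf1 had log2 ratios of -0.21, -0.10 and -0.09 with phenylephrine. With PAMH they had -0.14, 0.31 and -0.22. Sik1, a kinase that restrains CREB coactivators and is itself a CREB target, was 2.38-fold higher with phenylephrine and 1.81-fold higher with PAMH, with signals of 276, 210 and 116 on the phenylephrine, PAMH and unstimulated arrays. Creb3 was 1.77-fold higher and the coactivator gene Crebbp 1.53-fold lower with phenylephrine, while with PAMH they had log2 ratios of 0.43 and 0.21. Of 7 measured genes known to answer to CREB, Sik1 and the phosphatase gene Dusp1 (1.65-fold) passed 1.5-fold upward with phenylephrine, and Sik1 did with PAMH. The medians of the 7 were 0.21 with phenylephrine and 0.31 with PAMH. Lowest among them were Egr1 with phenylephrine, at -0.36, and Nr4a1 with PAMH, at -0.29. Nr4a3, Bdnf and Fos of that list had no ratio because their unstimulated signal was below the floor. Signals of Nr4a3 were 149.8 with phenylephrine, 112 with PAMH and 56.8 in unstimulated cells, and those of Bdnf were 113, 98.4 and 53.1 in the same order. Those of Fos were 83.5, 34.7 and 51.2, so it was below the floor with PAMH too.

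Partners of the members were measured too. Among 7 NF-κB and inhibitor genes, Rela, which encodes the RelA protein that AKIP1 binds, was 1.64-fold higher with PAMH and had a log2 ratio of 0.23 with phenylephrine. Nfkb2 was 1.52-fold higher with phenylephrine and had 0.21 with PAMH, and Chuk, the brightest, had -0.12 and 0.09. Of the sphingosine kinase genes, Sphk1 was 1.71-fold higher with phenylephrine and 1.79-fold higher with PAMH, with signals of 179, 187 and 105 on the phenylephrine, PAMH and unstimulated arrays. Sphk2 was 1.52-fold higher with phenylephrine and had a log2 ratio of 0.34 with PAMH. Sphkap, named for its binding to these kinases, thus lay below its unstimulated level where Sphk1 lay above. Several of the list values above fell short of 1.5-fold under at least 1 processing alternative: with phenylephrine those of Crebbp, Dusp1, Hspb6, Nfkb2, Pakap, Sphk1, Sphk2 and Synm, and with PAMH those of Adcy3, Akap6, Gnas, Grk5, Mybpc3, Pakap, Pkia and Rela.

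**Figure D4:**
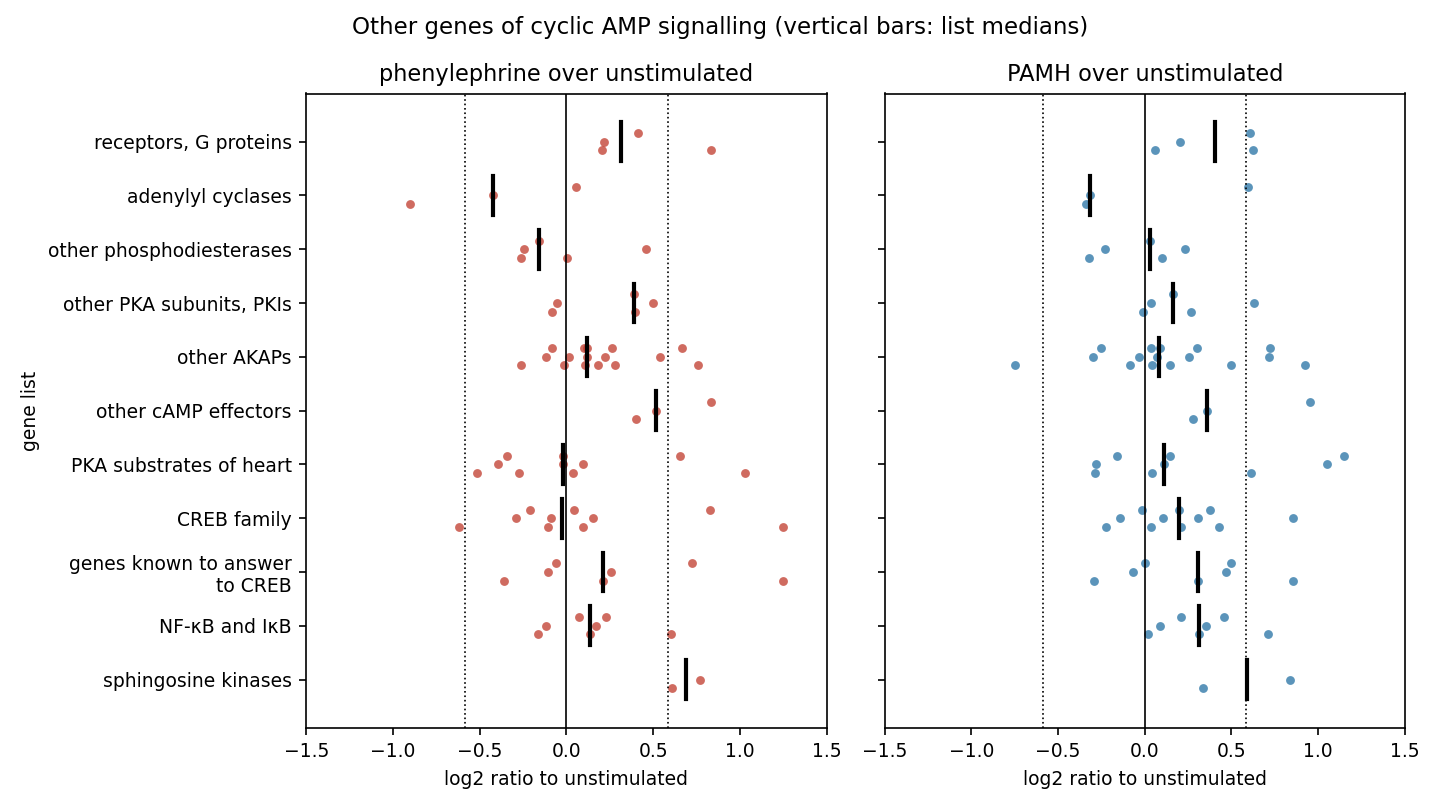
Log2 ratio to the unstimulated array of each measured gene in the 11 lists (1 point per gene), for phenylephrine (left) and PAMH (right); vertical bars are list medians and dotted lines mark 1.5-fold. Most points lie inside the dotted lines, with Adcy5 furthest to the left with phenylephrine and Cmya5 with PAMH.

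The members past 1.5-fold kept their side of the unstimulated level under all 10 processing alternatives. Across them the log2 ratio of Akip1 ranged from 1.60 to 1.96 with phenylephrine and from 1.68 to 2.22 with PAMH, and that of Sphkap from -1.42 to -1.16 and from -2.07 to -1.68. Pde4b with PAMH lay between -1.04 and -0.59, and its phenylephrine value between 0.38 and 0.50. Prkar2b lay between 0.75 and 0.88 with phenylephrine and between 0.57 and 0.73 with PAMH. By contrast Prkar1a with phenylephrine crossed zero, with values between -0.24 and 0.20. On the deposited intensities Prkaca with phenylephrine had -0.03 and Pde4d with PAMH -0.02, so their small ratios also changed sign.

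**Figure D5:**
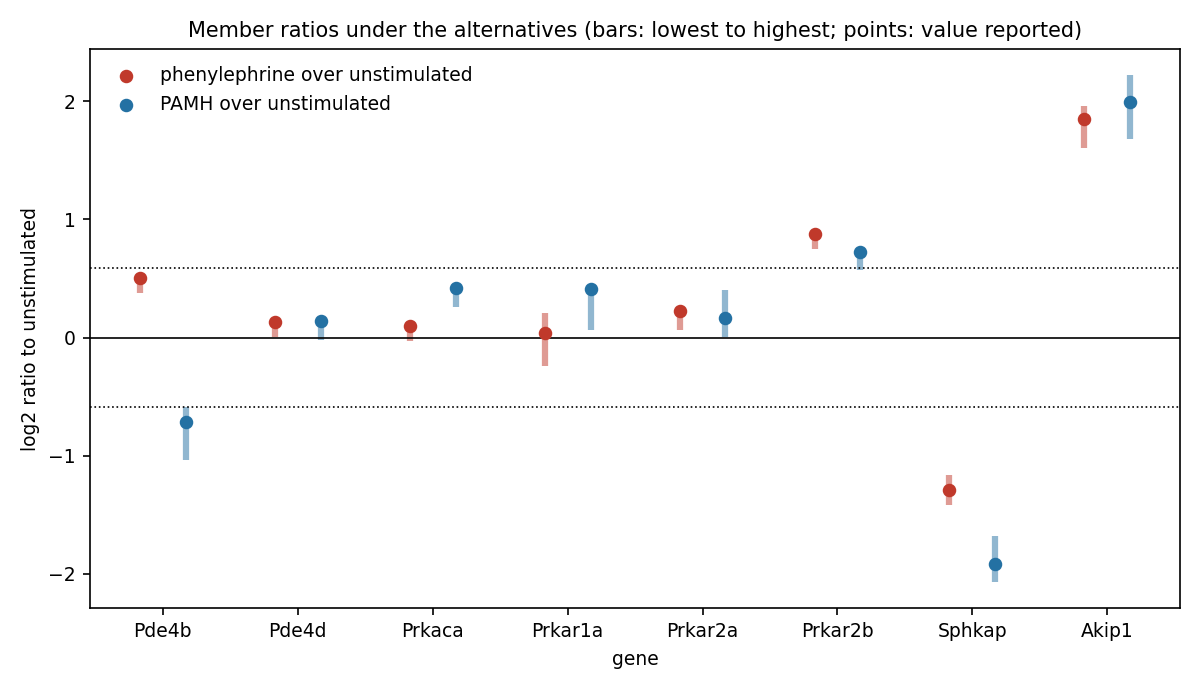
Log2 ratio to the unstimulated array of the 8 measured members with phenylephrine and with PAMH; points are the values reported, bars span the lowest to the highest value over the 10 processing alternatives, and dotted lines mark 1.5-fold. The bars of Akip1 and Sphkap stay outside the dotted lines, and that of Prkar1a with phenylephrine crosses zero.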

How the data were processed

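The deposited table held signal intensities on a linear scale for 15923 probe sets on 3 arrays; which software made them is not given in the sources used here. Their mean after trimming 2% at each end was 250.1 on every array. The 57 control probe sets were left out. Gene symbols came from the platform annotation, updated by gene identifier in the GRCr8 gene table (12748 of 12783 probe sets matched). Arrays were scaled to equal medians by factors of 1.02 for phenylephrine, 1.04 for PAMH and 0.937 for unstimulated cells. Genes were counted at 1.5-fold and 2-fold, and like-signal medians used 10 classes of mean signal. Named genes were mainly the members, list genes past 1.5-fold, the brightest gene of each list and the 5 genes nearest to each of the 2 members furthest from unstimulated. Members and lists were chosen with earlier results of these data known. The computation was checked on arrays with known changes and used Python 3.11.15, numpy 2.4.6, pandas 2.3.3, R 4.3.3 and limma 3.58.1.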

Additional observations from a re-analysis of the deposited data

How the results depend on the processing

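With 1 array per group, the number of arrays limits every value, and the spread between cultures is unknown. The count of members past 1.5-fold with phenylephrine was 3 under all 10 alternatives; with PAMH it was 4, and 3 on the deposited intensities, where Prkar2b had a log2 ratio of 0.57 and the split became 1 higher and 2 lower. Of 158 member values under the alternatives, 5 moved by more than the SD between probe sets, and no member past 1.5-fold changed sign. For the wider lists the count with phenylephrine was 14, but 32 with no floor and 8 by the second brightest probe set. With PAMH it was 15, but 35 with no floor and 7 on the deposited intensities. No floor admits genes near background, while the second brightest probe set measures fewer genes (60 in place of 70). Using the deposited intensities takes 0.15 off every log2 ratio with PAMH, which lowers values just past 1.5-fold below it. Of the 49 values past 1.5-fold for other genes named, cell type markers left aside, 18 fell short under at least 1 alternative and none changed sign. Over all genes quantile normalization gave 477 higher and 389 lower with phenylephrine, and 422 and 376 with PAMH; cyclic loess gave 413 and 363 with PAMH, and scaling on percentile 75 gave 492 and 353, against 585 and 298, and 610 and 273, as reported.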
